A study of Mus musculus with 5 samples.

Results

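Of 27919 named gene rows in the count table, 35 belong to transcription factors known from the neural tube caudal to the forebrain, that is the midbrain, hindbrain and spinal cord, and were picked out by gene symbol from a list drawn up with earlier results of these data known. Polyadenylated RNA was sequenced from forebrains of C57BL/6 mouse embryos at E12.5, left untreated. The libraries were 3 labelled EedcKO (a deletion of Eed) and 2 labelled wild type, described as littermates. Eed belongs to the core of PRC2, a Polycomb complex. The labels name neither the Cre driver nor the deleted part of Eed, and they do not say that each sample came from a separate embryo.

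PRC2 methylates histone H3 at genes kept silent, among them many developmental transcription factors in tissues that do not use them. Along the neural tube, homeodomain, paired-box, GATA and basic helix-loop-helix factors divide progenitors into domains and then fix the identity of the neurons born there. Several of the 35 are not exclusive to caudal levels. Nkx6-2 also marks progenitors of the ventral telencephalon, Mab21l2 the eye and parts of the diencephalon, and Prdm12 and Prdm13 the hypothalamus, while Tal1 and Gata2 are blood cell factors as well.

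Counts summed to 4915493, 4959394 and 5008928 in EedcKO 1, 2 and 3, against 5026381 in wild type 1 and 4820630 in the second wild-type library. Eed itself had 251, 233 and 247 counts in EedcKO 1, 2 and 3, against 404 in wild type 1 and 238 in the second library. That second library was thus at the mutant level and is called the library labelled wild type 2, and the wild-type libraries are kept apart in what follows. Exons outside a deleted part are counted too, which limits this check. The 39 HOX genes, which mark hindbrain and spinal cord and are silent in normal forebrain, summed to 85, 184 and 62 counts in EedcKO 1, 2 and 3, against 2 for wild type 1 and 134 for the library labelled wild type 2. Of 8 surface epithelium genes the sum was 75 to 122 counts in EedcKO and 93 in wild type 1, but 1079 in the library labelled wild type 2. Of 8 skeletal muscle genes it was 18 to 43 counts in EedcKO and 25 in wild type 1, but 289 in the library labelled wild type 2. Xist had 5239, 4 and 1 counts in EedcKO 1, 2 and 3, against 5150 for wild type 1 and 3127 for the library labelled wild type 2, so only EedcKO 1 shared the sex of the wild-type libraries.

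Among the factors with at least 10 counts over all libraries, 2 patterns recurred. Mab21l2, Nkx6-1, Nkx6-2, Prdm13, Prdm12 and Pax5 were lower in every EedcKO library than in either wild-type library. These were 6 of 23 (26.1%), against 17.3% of all genes with as many counts. For Irx1, Irx2, Irx3, Irx5, Pax3, Pax7, Lmx1b, Tal1 and Gata2 the library labelled wild type 2 was highest. The sign of their fitted fold change depended on which wild-type library was used. Others, such as Pax2, En2, Lbx1, Phox2a and Isl2, followed neither pattern. All 35 together summed to 351, 383 and 282 counts in EedcKO 1, 2 and 3 (95% Poisson intervals 315 to 390, 346 to 423 and 250.04 to 317). They summed to 517 for wild type 1 (473 to 564) and 911 for the library labelled wild type 2 (853 to 972). These intervals cover counting error only. The 4 genes with the highest totals, Tal1, Prdm12, Nkx6-2 and Mab21l2, held much of these sums. Without them the others summed to 152, 231 and 101 counts in EedcKO 1, 2 and 3, against 149 for wild type 1 and 481 for the library labelled wild type 2. In bulk tissue fewer cells of a type and less RNA per cell cannot be told apart.

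**Figure D1:**
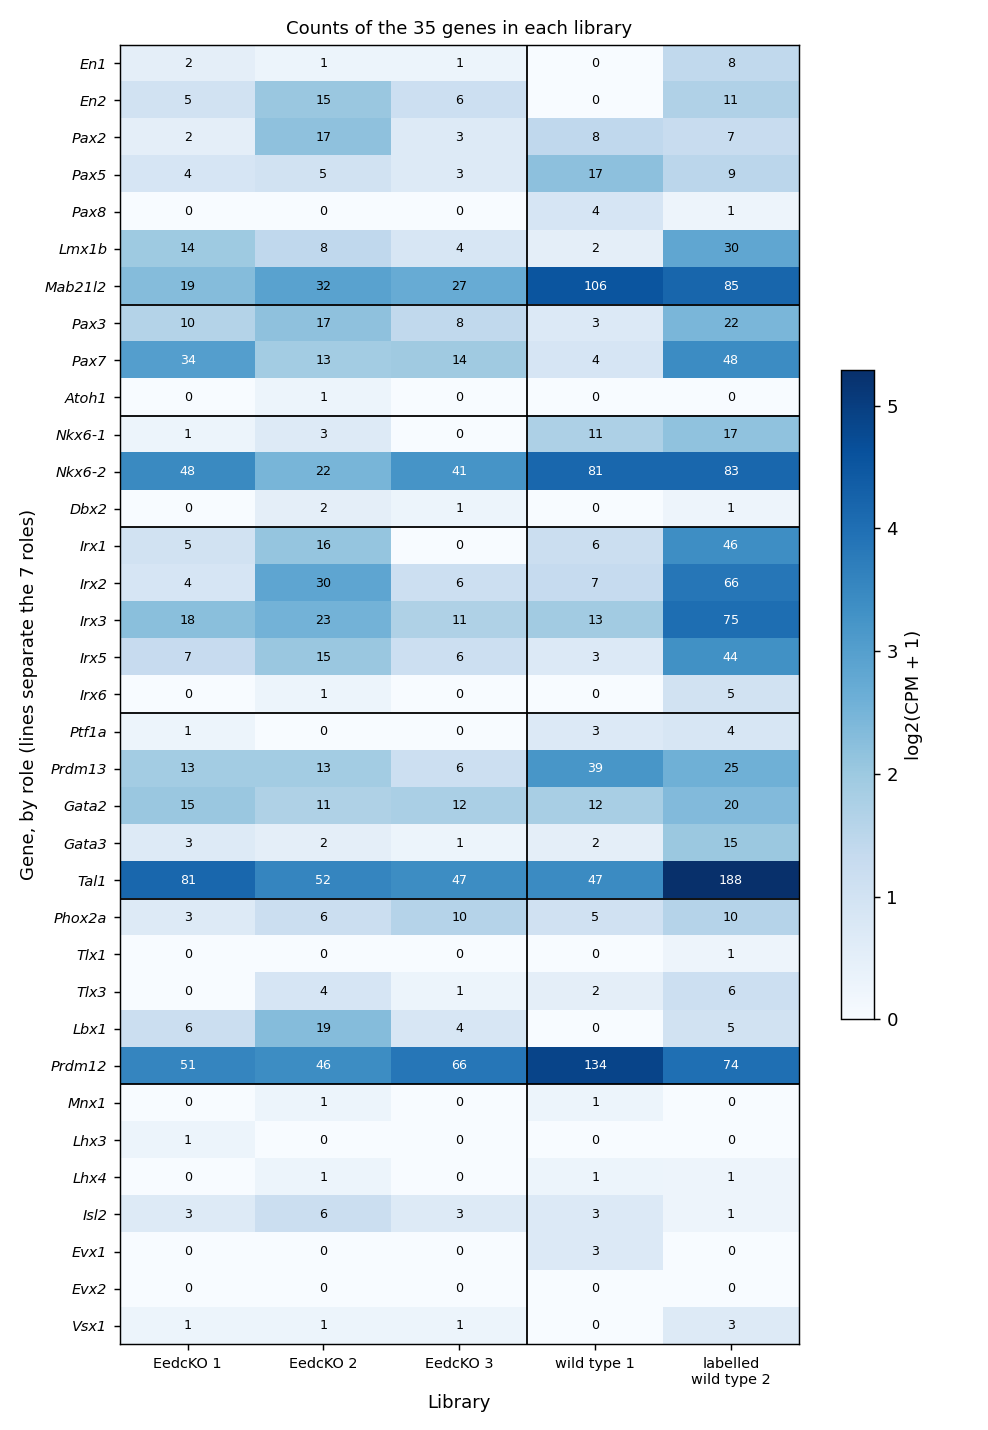
Counts of the 35 genes (rows, grouped by role, separated by lines) in the 3 EedcKO libraries, wild type 1 and the library labelled wild type 2 (columns). Numbers are counts and the colour is log2(CPM + 1), where CPM is the count scaled to library size. Mab21l2 has 19, 32 and 27 counts in EedcKO against 106 and 85 in the wild-type libraries, while the 5 IRX rows are darkest in the library labelled wild type 2.

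In edgeR's quasi-likelihood test, 15 of the 35 genes passed the filter on low counts, and 1 of them, Mab21l2, passed a false discovery rate of 0.05, lower in EedcKO. Over all 13989 genes tested 3.2% passed in either direction, 1.04% as higher and 2.17% as lower. Of all tested genes 17.4% were lower and 16.4% higher in every EedcKO library than in either wild-type library, against 5 and 0 of the 15. Of the 5, Nkx6-1 passed the filter through its wild-type counts alone. It could thus be counted only as lower, here and among the signs that follow. The median log2 fold change (EedcKO over wild type) of the 15 was -1.15, against 0.01 over all tested genes, and 14 of the 15 were below 0, against 48.4% of all. Leaving out the library labelled wild type 2, 18 were tested, the median was 0.27 and 7 of 18 were below 0. In that fit 3 passed, all lower (Mab21l2, Prdm13 and Prdm12; 6.2% of all genes passed and 4.12% as lower). With wild type 1 left out instead, 4 of 19 passed, all lower (Mab21l2, Tal1, Irx3 and Irx5; 7.02% of all genes passed and 4.02% as lower). Nkx6-1 passed as well with no filter on counts (3.36% of all genes) or with scaling by library size alone (4.83%). Without EedcKO 3 edgeR called 0 of 13891 genes (0%), among them none of the 15 tested factors, of which 5 had an unadjusted p under 0.05, as had 1887 genes. A fit with a single wild-type library assumes that it varies as the EedcKO libraries do.

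Of the 35 genes, 23 had at least 10 counts over the 5 libraries. Among these 23, EedcKO lay wholly below wild type for 6 (26.1%, against 17.3% of all genes with as many counts) and wholly above for 0 (against 15.6%). The library labelled wild type 2 was the highest of the 5 for 13 of the 23 (56.5%), against 24% of all such genes and 32.2% of those with totals no higher than Tal1's. Wild type 1 was the lowest for 7 of 23 (30.4%), against 22.2% and 23.4%. The 7 were En1, En2, Lmx1b, Pax3, Pax7, Irx5 and Lbx1.

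**Figure D2:**
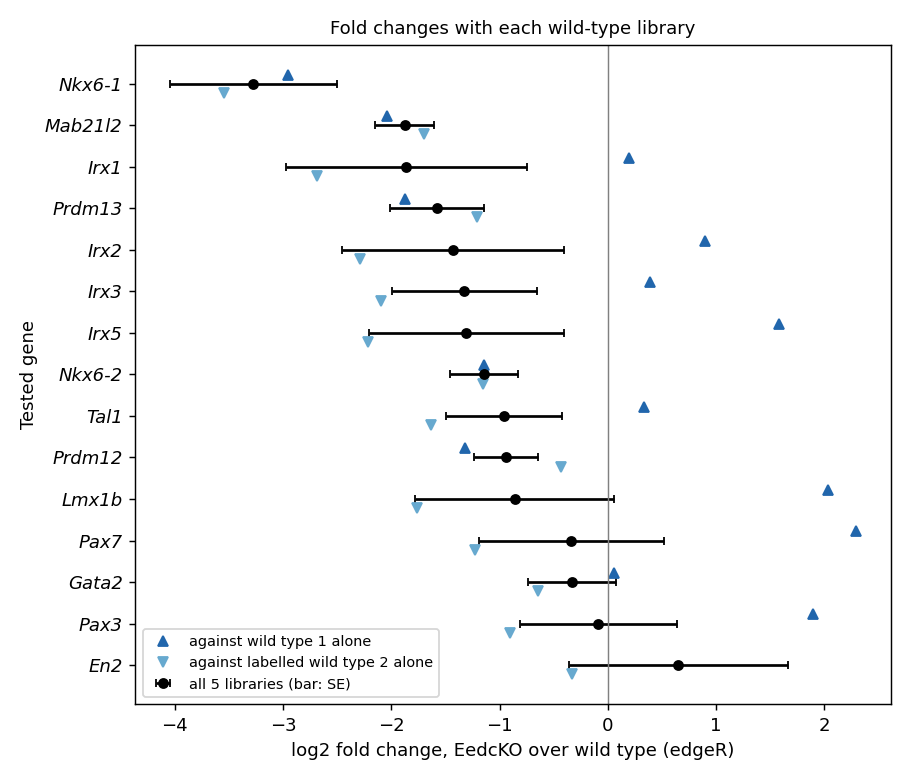
log2 fold change of the 15 tested genes, EedcKO over wild type, with all 5 libraries (circles, bars are 1 SE) and with a single wild-type library (triangles). Mab21l2, Nkx6-1, Nkx6-2, Prdm12 and Prdm13 lie below 0 in all 3 fits, while the IRX genes, Tal1, Lmx1b, Pax3 and Pax7 lie above 0 against wild type 1 alone and below 0 against the library labelled wild type 2 alone. En2 has no triangle against wild type 1, where it had 0 counts.

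Promoter sequence was examined because many Polycomb targets have promoters rich in CG dinucleotides. RefSeq promoters (GRCm38.p6, the assembly of mm10) were found for 29 of the 35 genes, 34 promoters in all, and the 250 bases before each start were read. The motif CG, which reads the same on both strands, occurred in all 34 and in 93.4% of 21263 promoters of protein-coding genes. The median number of CG was 15.5 for the 34, from 3 to 30, against 10 for the protein-coding promoters. The ratio of observed to expected CG was at least 0.6 in 24 of 34 (70.6%), against 44.7% of protein-coding promoters. The motif TATAAA, on either strand, occurred in 3 of 34 (8.82%), against 11.6%. These shares describe the list, which was not compared with other developmental genes.

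**Figure D3:**
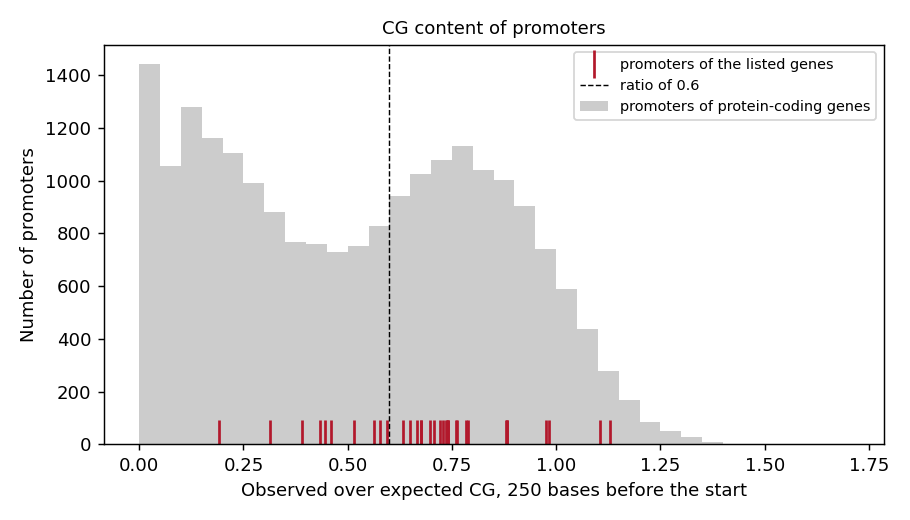
Ratio of observed to expected CG in the 250 bases before the start for promoters of protein-coding genes (grey histogram, bins of 0.05) and for the 34 promoters of the listed genes (red marks). Of the red marks 24 lie at or above 0.6 (dashed line).

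The windows of 3 factors that were lower in every EedcKO library and of Irx2, highest in the library labelled wild type 2, are shown to set the 2 patterns side by side, 5′ to 3′ on the gene's strand with CG in capitals. They cover chr7:139582798-139583047 (minus strand, Nkx6-2), chr4:21685964-21686213 (minus strand, Prdm13), chr2:31639787-31640036 (plus strand, Prdm12) and chr13:72628570-72628819 (plus strand, Irx2).
Nkx6-2: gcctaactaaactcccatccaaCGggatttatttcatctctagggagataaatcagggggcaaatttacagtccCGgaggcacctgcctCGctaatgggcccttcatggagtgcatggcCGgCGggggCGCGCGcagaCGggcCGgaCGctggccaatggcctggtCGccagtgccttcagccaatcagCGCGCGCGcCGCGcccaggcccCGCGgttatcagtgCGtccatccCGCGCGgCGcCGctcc
Prdm13: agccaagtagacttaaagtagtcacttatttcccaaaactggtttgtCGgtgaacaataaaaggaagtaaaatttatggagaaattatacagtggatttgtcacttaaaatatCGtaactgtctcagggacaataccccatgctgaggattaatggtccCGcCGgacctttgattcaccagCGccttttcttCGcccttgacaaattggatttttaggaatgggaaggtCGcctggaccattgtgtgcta
Prdm12: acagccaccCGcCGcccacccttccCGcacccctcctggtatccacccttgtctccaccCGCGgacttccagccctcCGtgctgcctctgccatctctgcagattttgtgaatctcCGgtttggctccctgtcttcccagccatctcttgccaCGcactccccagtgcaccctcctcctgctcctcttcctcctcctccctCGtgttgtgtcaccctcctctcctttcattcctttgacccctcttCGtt
Irx2: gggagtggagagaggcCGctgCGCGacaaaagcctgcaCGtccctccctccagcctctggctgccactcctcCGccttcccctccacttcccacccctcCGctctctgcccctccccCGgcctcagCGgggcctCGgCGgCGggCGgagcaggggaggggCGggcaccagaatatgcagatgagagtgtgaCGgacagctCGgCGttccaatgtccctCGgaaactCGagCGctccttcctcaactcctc
They hold 26, 7, 10 and 19 CG for Nkx6-2, Prdm13, Prdm12 and Irx2, with observed to expected ratios of 0.98, 0.65, 0.59 and 0.67. CG number thus spanned a wide range among these 3 factors that were low in EedcKO, and that of Irx2 lay within it. Mab21l2, Nkx6-1 and Pax5, low as well but not printed, had 10, 30 and 19 CG. Only windows without an annotated exon were printed.

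Among factors of the midbrain and the isthmic organiser, the signalling centre between midbrain and hindbrain, Mab21l2 fell in EedcKO. Mab21l2 (chromosome 3, 86545581 to 86548629, minus strand, mm10) encodes a Mab-21 family protein needed for eye development and expressed in the midbrain. It had 19, 32 and 27 counts in EedcKO 1, 2 and 3, against 106 for wild type 1 and 85 for the library labelled wild type 2. The groups did not overlap, and the library labelled wild type 2 was on the side of wild type 1. Its level was 5.37 ± 1.33 CPM in EedcKO (SD, n = 3), against 19.8 ± 3.58 CPM in wild type (SD, n = 2). The log2 fold change was -1.88 (SE 0.27, edgeR adjusted p = 0.0168). It was -2.04 without the library labelled wild type 2 (edgeR adjusted p = 0.00528) and -1.70 without wild type 1 (0.0183). It was -1.90 without EedcKO 3, where the call was lost (edgeR adjusted p = 0.125). Mab21l2 lies within Lrba on the opposite strand, and 1097 of its 3049 exon bases overlap annotated exons of Lrba. No source used here says whether counting used strand, so reads of the 2 genes cannot be told apart there. Lrba had 277, 306 and 310 counts in EedcKO 1, 2 and 3, against 329 for wild type 1 and 287 for the library labelled wild type 2, a smaller difference than in Mab21l2. The 10 markers of retina and eye summed to 35.5, 20.5 and 45.7 CPM in EedcKO, against 21.5 CPM for wild type 1 and 27.0 CPM for the library labelled wild type 2, so the groups overlapped. The summed level of the 12 diencephalon markers was lower in every EedcKO library, as Mab21l2, Nkx6-1, Nkx6-2, Prdm13 and Prdm12 were. In EedcKO 1, 2 and 3 the sums were 223, 270 and 217 CPM. They were 418 CPM for wild type 1 and 442 CPM for the library labelled wild type 2. Of the 12 markers, 10 were detected in wild type 1, 11 in EedcKO 1 and all 12 elsewhere, so not each marker followed the sum. The part of dissected diencephalon in the counts of these factors was not tested.

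The paired-box factors Pax5 and Pax8, which act in midbrain-hindbrain patterning, were also lowest in EedcKO but had few counts. Pax5 had 4, 5 and 3 counts in EedcKO 1, 2 and 3, against 17 for wild type 1 and 9 for the library labelled wild type 2. Pax8 had 0 counts in each EedcKO library, against 4 for wild type 1 and 1 for the library labelled wild type 2. Neither entered the test, and for Pax8 both groups were near the 3 counts that a count of 0 allows. Pax2, which precedes them at the isthmus and marks the optic stalk, had 2, 17 and 3 counts in EedcKO 1, 2 and 3, against 8 for wild type 1 and 7 for the library labelled wild type 2. EedcKO 2 alone stood above the wild-type libraries, and the groups overlapped.

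The engrailed genes, homeodomain factors that define the midbrain-hindbrain region, had no counts in wild type 1. En2 (chromosome 5, 28165694 to 28172166) had 5, 15 and 6 counts in EedcKO 1, 2 and 3, against 0 for wild type 1 and 11 for the library labelled wild type 2. Over all libraries its log2 fold change was 0.65 (SE 1.01, edgeR adjusted p = 0.814), less than its SE. En1 (chromosome 1, 120602418 to 120607992) had 2, 1 and 1 counts in EedcKO, against 0 for wild type 1 and 8 for the library labelled wild type 2. Both genes were thus at 0 in wild type 1 and above 0 in the other 4 libraries. Lmx1b, a LIM-homeodomain factor of the isthmus and of serotonergic and dopaminergic neurons, had 14, 8 and 4 counts in EedcKO 1, 2 and 3, against 2 for wild type 1 and 30 for the library labelled wild type 2. Its log2 fold change was -0.86 (SE 0.92, edgeR adjusted p = 0.718). It was 2.03 without the library labelled wild type 2 (edgeR adjusted p = 0.365) and -1.77 without wild type 1 (0.103), so none of these fits gave a call.

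Pax3 and Pax7, paired-box factors of the dorsal neural tube, followed the same order, with wild type 1 lowest and the library labelled wild type 2 highest. Pax7 (chromosome 4, 139737062 to 139833528) had 34, 13 and 14 counts in EedcKO 1, 2 and 3, against 4 for wild type 1 and 48 for the library labelled wild type 2. Pax3 (chromosome 1, 78101267 to 78197134) had 10, 17 and 8 counts in EedcKO, against 3 for wild type 1 and 22 for the library labelled wild type 2. EedcKO lay between the wild-type libraries for both genes. The log2 fold changes over all libraries were -0.34 for Pax7 (SE 0.85, edgeR adjusted p = 0.897) and -0.09 for Pax3 (SE 0.72, edgeR adjusted p = 0.974). Against wild type 1 alone they were 2.29 for Pax7 and 1.90 for Pax3 (edgeR adjusted p = 0.174 and 0.267). Pax3 and Pax7 also mark muscle precursors. Myod1, a muscle determination factor, had 4, 0 and 3 counts in EedcKO 1, 2 and 3, against 0 for wild type 1 and 11 for the library labelled wild type 2. The 8 skeletal muscle genes summed to 9.0, 3.7 and 7.8 CPM in EedcKO, against 5.3 CPM for wild type 1 and 58.8 CPM for the library labelled wild type 2, with 4 to 8 of the 8 detected in each library. The part of muscle in the Pax3 and Pax7 counts was not tested. Atoh1, which specifies the granule cells of the rhombic lip, had 1 count, in EedcKO 2.

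The ventral progenitor factors Nkx6-1 and Nkx6-2 were low in EedcKO, though neither passed the test. Nkx6-2 (chromosome 7, 139579376 to 139582797) had 48, 22 and 41 counts in EedcKO 1, 2 and 3, against 81 for wild type 1 and 83 for the library labelled wild type 2. Its log2 fold change was -1.15 (SE 0.32, edgeR adjusted p = 0.104), and it was -1.15 against either wild-type library alone. Inpp5a, whose exons overlap 246 of its 1907 exon bases on the opposite strand, had 193, 182 and 233 counts in EedcKO, against 163 for wild type 1 and 240 for the library labelled wild type 2. Nkx6-1 (chromosome 5, 101658139 to 101664996) had 1, 3 and 0 counts in EedcKO 1, 2 and 3, against 11 for wild type 1 and 17 for the library labelled wild type 2. The groups did not overlap, and the log2 fold change was -3.27 (SE 0.77, edgeR adjusted p = 0.0707). By group sums, 4 counts in EedcKO and 28 in wild type, wild type was 10.5-fold above EedcKO (95% counting interval 3.67 to 41.2). This ratio pools both wild-type libraries, and its interval leaves out the spread between libraries. Dbx2, of intermediate progenitors, had at most 2 counts in any library.

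The Iroquois genes, homeodomain factors that mark the neural tube caudal to the middle of the diencephalon, stood far above the other libraries in the library labelled wild type 2. The 5 genes of the list summed to 34, 85 and 23 counts in EedcKO 1, 2 and 3 (95% Poisson intervals 23.5 to 47.5, 67.9 to 105 and 14.6 to 34.5). They summed to 29 for wild type 1 (19.4 to 41.6) and 236 for the library labelled wild type 2 (207 to 268). Scaled to library size, the library labelled wild type 2 was 7.84-fold above wild type 1 (95% counting interval 5.32 to 11.96), a comparison of 2 libraries and not of conditions. EedcKO 2 was 2.88-fold above wild type 1 (1.87 to 4.55), and the intervals of EedcKO 1 (0.69 to 1.98) and EedcKO 3 (0.43 to 1.38) included equality.

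Both Iroquois clusters took part. On chromosome 13, Irx2 (72628820 to 72634198) had 4, 30 and 6 counts in EedcKO 1, 2 and 3, against 7 for wild type 1 and 66 for the library labelled wild type 2. Irx1 (71957921 to 71963723), 665.1 kb away, had 5, 16 and 0 counts in EedcKO, against 6 for wild type 1 and 46 for the library labelled wild type 2. In both genes EedcKO 2 ranked second. On chromosome 8, Irx3 (91798525 to 91802067) had 18, 23 and 11 counts in EedcKO, against 13 for wild type 1 and 75 for the library labelled wild type 2. Irx5 (92357625 to 92376286) had 7, 15 and 6 counts in EedcKO, against 3 for wild type 1 and 44 for the library labelled wild type 2. Irx6, the third gene of that cluster, had 0, 1 and 0 counts in EedcKO, against 0 for wild type 1 and 5 for the library labelled wild type 2. The log2 fold changes over all libraries lay between -1.86 for Irx1 and -1.31 for Irx5, and none passed (edgeR adjusted p 0.377 to 0.562). Without wild type 1, Irx3 (-2.10, edgeR adjusted p = 0.0169) and Irx5 (-2.21, edgeR adjusted p = 0.0331) passed. Without the library labelled wild type 2 the sign turned to 0.20 for Irx1, 0.90 for Irx2, 0.39 for Irx3 and 1.58 for Irx5, and none passed (edgeR adjusted p 0.418 to 0.962).

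Of the marker lists of other tissues, those of surface epithelium, skeletal muscle, choroid plexus and erythroid cells were also highest in that library. So was the diencephalon list, at 442 CPM, close to the 418 CPM of wild type 1. The remaining lists were not. The 11 genes of meninges and mesenchyme summed to 644, 319 and 414 CPM in EedcKO 1, 2 and 3, against 261 CPM for wild type 1 and 477 CPM for the library labelled wild type 2. By summed CPM the 8 surface epithelium genes stood at 25.5, 19.4 and 15.4 in EedcKO 1, 2 and 3, against 19.6 for wild type 1 and 219 for the library labelled wild type 2. The 7 choroid plexus genes stood at 81.4, 157 and 23.0 in EedcKO, against 126 for wild type 1 and 467 for the library labelled wild type 2. Among the epithelial genes, Krt5 had 428 counts there and at most 20 elsewhere. In EedcKO 2, where the IRX genes were next highest, epithelial and muscle sums were within or below the range of EedcKO 1, EedcKO 3 and wild type 1, and the choroid plexus sum was above them. The part of these tissues in the IRX counts of the library labelled wild type 2 was not tested. The 16 forebrain genes summed to 2426 to 2530 CPM in EedcKO, against 2430 CPM for wild type 1 and 2320 CPM for the library labelled wild type 2.

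**Figure D4:**
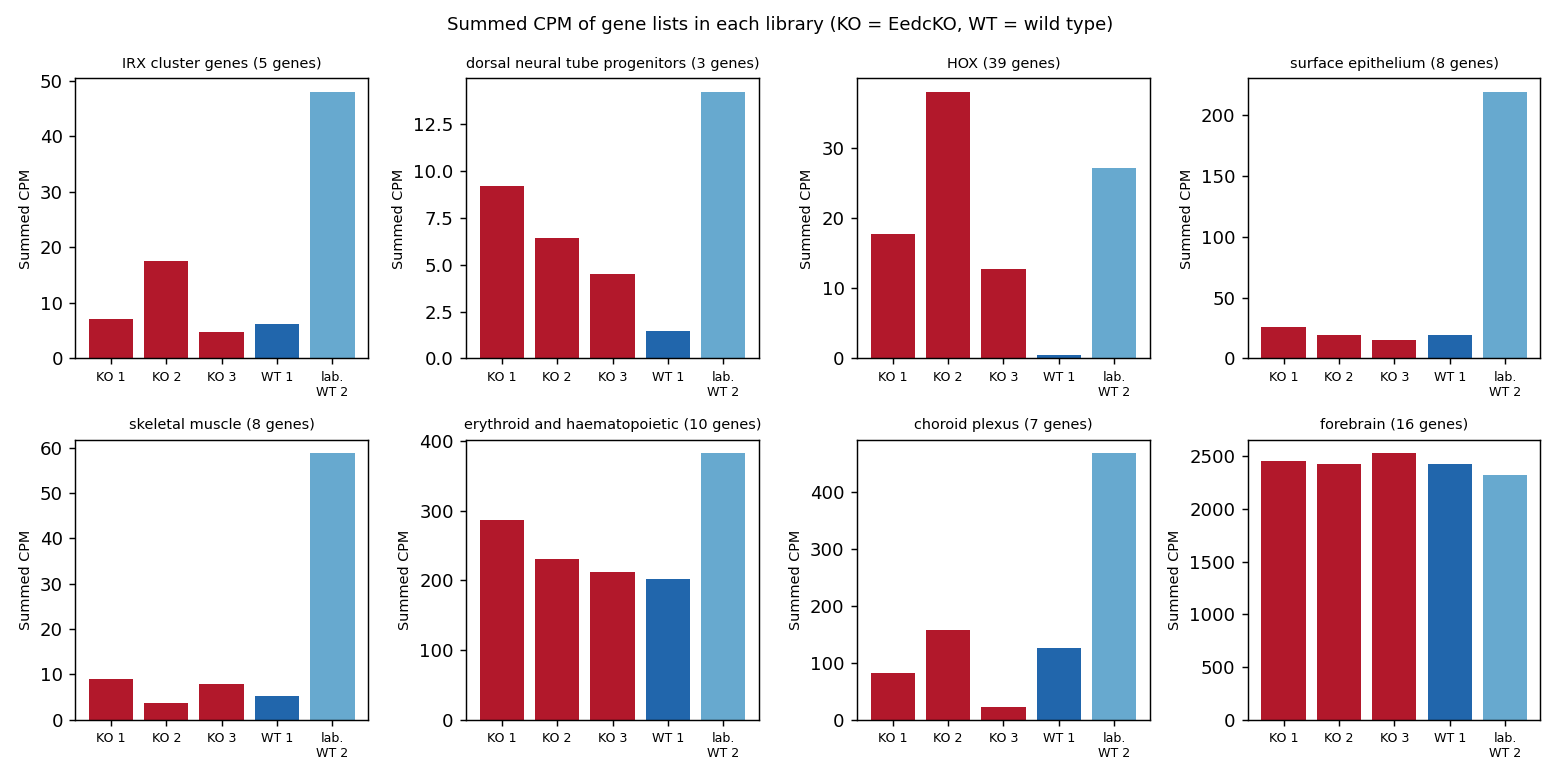
Summed CPM of 8 gene lists in each library (bars start at 0, EedcKO in red, wild type 1 in dark blue, the library labelled wild type 2 in light blue). IRX, epithelial, muscle, erythroid and choroid plexus sums are highest in the library labelled wild type 2, HOX genes are near 0 in wild type 1 alone, and forebrain genes differ little between libraries.

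Of the factors that select inhibitory neurons, Prdm13 was lower in every EedcKO library than in either wild-type library, and Tal1 and Gata3 were highest in the library labelled wild type 2. Prdm13 (chromosome 4, 21677480 to 21685963), which acts with Ptf1a in GABAergic interneurons, had 13, 13 and 6 counts in EedcKO 1, 2 and 3, against 39 for wild type 1 and 25 for the library labelled wild type 2. Its log2 fold change was -1.58 (SE 0.43, edgeR adjusted p = 0.104), and -1.88 against wild type 1 alone, just past the threshold (edgeR adjusted p = 0.04996). Ptf1a, which commits precursors to the GABAergic fate in cerebellum and dorsal horn, had 1, 0 and 0 counts in EedcKO, against 3 for wild type 1 and 4 for the library labelled wild type 2. That is too few to be tested, and as for Prdm13 the EedcKO counts were the lowest.

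Tal1 (chromosome 4, 115056426 to 115071755), a factor of midbrain and spinal GABAergic neurons and of blood, had 81, 52 and 47 counts in EedcKO 1, 2 and 3, against 47 for wild type 1 and 188 for the library labelled wild type 2. By count EedcKO was at or above wild type 1 in each library and below the library labelled wild type 2. Its log2 fold change was -0.95 over all libraries (SE 0.54, edgeR adjusted p = 0.440), -1.64 without wild type 1 (edgeR adjusted p = 0.0126) and 0.33 without the library labelled wild type 2 (edgeR adjusted p = 0.686). Alas2, a haem synthesis enzyme of erythroid cells, had 261, 151 and 116 counts in EedcKO 1, 2 and 3, against 108 for wild type 1 and 545 for the library labelled wild type 2. As with Tal1, EedcKO 1 came next after the highest library. All 10 erythroid and haematopoietic markers had counts in every library, at a summed 286, 231 and 212 CPM in EedcKO, against 202 CPM for wild type 1 and 382 CPM for the library labelled wild type 2. The 10 endothelial markers did not follow that order, with 288, 255 and 346 CPM in EedcKO, against 324 CPM for wild type 1 and 248 CPM for the library labelled wild type 2. The part of blood cells in the Tal1 counts was not tested. Gata3, a zinc finger factor that acts with Tal1 in these neurons, had 3, 2 and 1 counts in EedcKO, against 2 for wild type 1 and 15 for the library labelled wild type 2. Gata2, the factor upstream of both in midbrain GABAergic neurons, was more even, with 15, 11 and 12 counts in EedcKO, against 12 for wild type 1 and 20 for the library labelled wild type 2 (log2 fold change -0.33, SE 0.40, edgeR adjusted p = 0.757).

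Prdm12 had the highest level of the 35 genes per length in wild type 1. Prdm12 (chromosome 2, 31640037 to 31655795), a zinc finger factor of nociceptive neurons and of progenitors in the spinal cord, stood at 21.0, 18.6 and 26.3 TPM (a level scaled by gene length) in EedcKO 1, 2 and 3, against 54.7 TPM for wild type 1 and 29.4 TPM for the library labelled wild type 2. The counts behind these levels were 51, 46 and 66 in EedcKO, against 134 for wild type 1 and 74 for the library labelled wild type 2. The groups did not overlap, but the library labelled wild type 2 lay close to EedcKO 3. The log2 fold change was -0.94 (SE 0.30, edgeR adjusted p = 0.150), -1.32 against wild type 1 alone (edgeR adjusted p = 0.0129) and -0.44 against the library labelled wild type 2 alone (edgeR adjusted p = 0.376). Prdm12 also marks sensory ganglia. The 10 markers of neural crest and sensory ganglia summed to 110, 83.4 and 76.9 CPM in EedcKO, against 210 CPM for wild type 1 and 142 CPM for the library labelled wild type 2, with 8 to 10 of the 10 detected in each library. Isl1, also a forebrain gene, held a large part of the counts of these markers (360, 200 and 214 in EedcKO, against 681 for wild type 1 and 360 for the library labelled wild type 2). The part of ganglia in the Prdm12 counts was not tested.

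Lbx1, which divides classes of dorsal spinal interneurons, had counts in every library but wild type 1. Lbx1 (chromosome 19, 45232684 to 45235812) had 6, 19 and 4 counts in EedcKO 1, 2 and 3, against 0 for wild type 1 and 5 for the library labelled wild type 2. EedcKO 2 was highest, as it was for Pax2 and En2. Tlx1, its neighbour at a distance of 75.7 kb and a factor of glutamatergic dorsal horn neurons, had 1 count in all, in the library labelled wild type 2. Tlx3, which shares that role, had 0, 4 and 1 counts in EedcKO, against 2 for wild type 1 and 6 for the library labelled wild type 2. Phox2a, a factor of noradrenergic and visceral motor neurons, had 3, 6 and 10 counts in EedcKO, against 5 for wild type 1 and 10 for the library labelled wild type 2, with overlapping groups. None of these 4 genes entered the test.

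Factors of motor neurons and ventral spinal interneurons were close to silent in all libraries. The 7 genes summed to 5, 9 and 4 counts in EedcKO 1, 2 and 3, against 8 for wild type 1 and 5 for the library labelled wild type 2, with overlapping Poisson intervals. Isl2, of motor and sensory neurons, had 3, 6 and 3 counts in EedcKO, against 3 for wild type 1 and 1 for the library labelled wild type 2. Vsx1, of retinal bipolar cells and spinal V2 neurons, had 1 count in each EedcKO library, against 0 for wild type 1 and 3 for the library labelled wild type 2. Mnx1, which consolidates motor neuron identity, and the LIM-homeodomain factors Lhx3 and Lhx4 had at most 1 count in any library. At this depth 3 counts correspond to 0.610 to 0.632 CPM, so differences below that level were not detectable.

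The even-skipped homologues Evx1 and Evx2, factors of commissural interneurons, lie at the ends of HOX clusters. They had too few counts to be compared with the summed HOX counts. Evx1 lies 52.6 kb from Hoxa13 on chromosome 6 and had 0 counts in each EedcKO library, against 3 for wild type 1 and 0 for the library labelled wild type 2. The HOXA genes summed to 7, 38 and 5 counts in EedcKO 1, 2 and 3, against 1 for wild type 1 and 37 for the library labelled wild type 2. Among them Hoxa6 and Hoxa11 had no count in any library. Evx2 lies 8.8 kb from Hoxd13 on chromosome 2 and had no count in any library. The HOXD genes summed to 28, 37 and 15 counts in EedcKO, against 1 for wild type 1 and 33 for the library labelled wild type 2. Within that cluster Hoxd11 and Hoxd12 also had no count in any library. Evx2 was the only one of the 35 genes without a count.

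**Figure D5:**
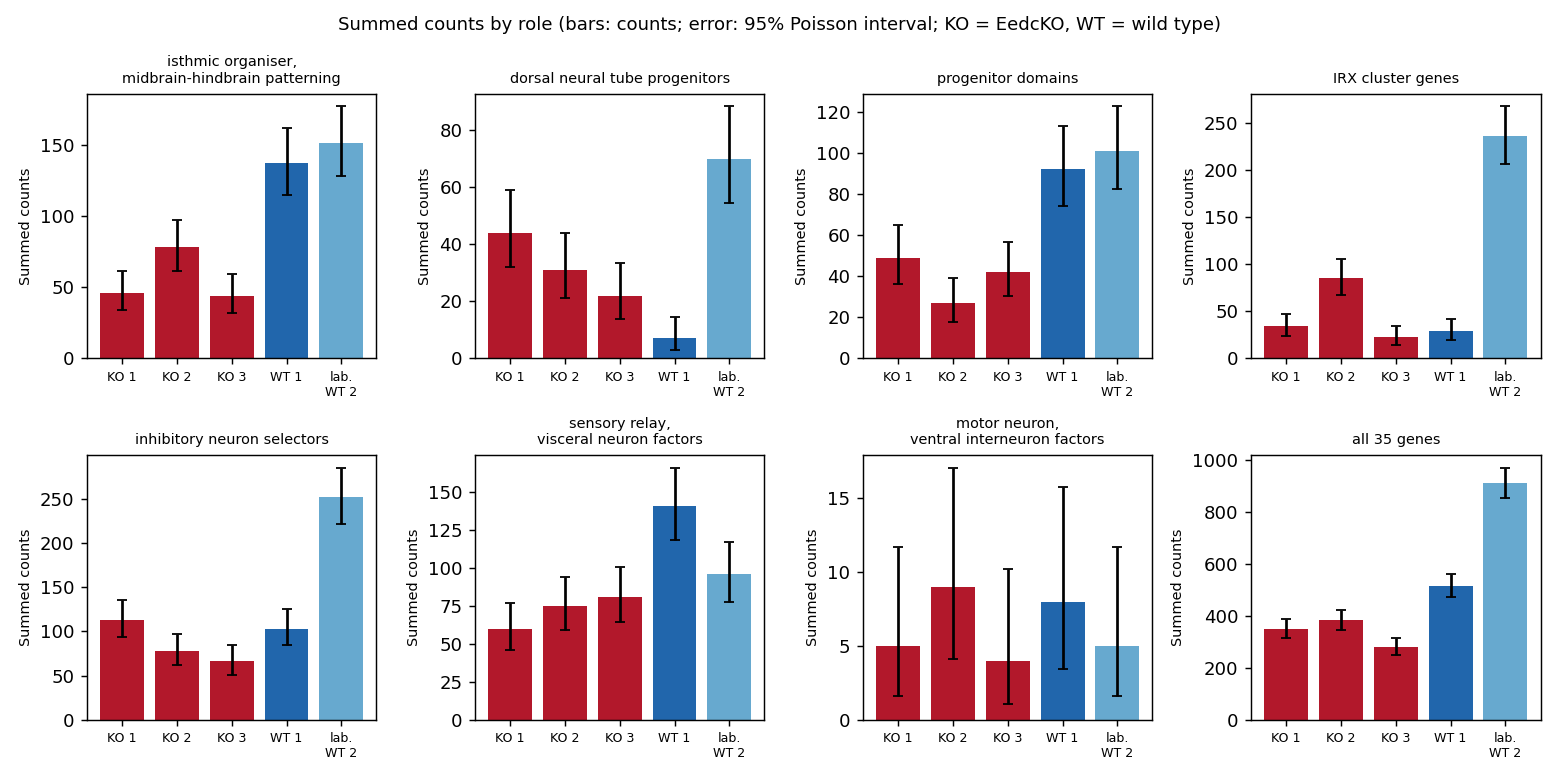
Summed counts by role in each library (bars start at 0, error bars are 95% Poisson intervals, EedcKO in red, wild type 1 in dark blue, the library labelled wild type 2 in light blue). Progenitor domain factors are lower in the 3 EedcKO libraries than in both wild-type libraries, and dorsal factors are lowest in wild type 1. IRX and inhibitory neuron factors are highest in the library labelled wild type 2. There Tal1 alone holds 188 of the 252 counts of the inhibitory neuron factors.

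Other factors used at caudal levels, many of them also active in the forebrain, were followed with a list of 58 genes. Of 35 with enough counts, 7 fell and 3 rose in edgeR at a false discovery rate of 0.05 (2.17% of all tested genes as lower and 1.04% as higher). Without the library labelled wild type 2, 12 of 40 fell and 5 rose (4.12% of all genes as lower and 2.07% as higher). Without EedcKO 3 edgeR called none, as of all genes. The corepressor Skor1, of dorsal interneurons, had 1, 1 and 0 counts in EedcKO 1, 2 and 3, against 49 for wild type 1 and 57 for the library labelled wild type 2. By group sums of 2 and 106 counts wild type was 79.5-fold above EedcKO (95% counting interval 21.5 to 665). This ratio pools both wild-type libraries, and its interval leaves out the spread between libraries. Uncx, a homeodomain factor of midbrain and diencephalic neurons, had 32, 46 and 33 counts in EedcKO, against 249 for wild type 1 and 154 for the library labelled wild type 2 (log2 fold change -2.45, SE 0.27, edgeR adjusted p = 0.00937). Both genes were low in all 3 EedcKO libraries, and in both the library labelled wild type 2 was on the side of wild type 1. Shh, Lhx1, Lhx5 and Barhl2 were among the other decreases.

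The 3 that rose are all used by cortical cells too. Bhlhe22, a basic helix-loop-helix factor of dorsal interneurons and cortical neurons, had 490, 665 and 592 counts in EedcKO, against 213 for wild type 1 and 293 for the library labelled wild type 2 (1.20, SE 0.17, edgeR adjusted p = 0.0156). Prdm8, its partner in cortical neurons, had 331, 514 and 486 counts in EedcKO, against 206 for wild type 1 and 145 for the library labelled wild type 2 (1.33, SE 0.23, edgeR adjusted p = 0.0328). Pax6, a progenitor factor, was the third (0.65). Of those with the next smallest p, Onecut2, Gsx1, Olig2 and Gbx2 had log2 fold changes of -1.31, -3.05, -1.18 and -2.64, and none passed (edgeR adjusted p 0.0751 to 0.104).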

How the data were processed

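Polyadenylated forebrain RNA was sequenced from 3 EedcKO and 2 wild-type samples, grouped by their titles. Libraries followed the BGISEQ-500 procedure, per the labels' protocols. HISAT2 2.2.0 and mm10 are named in the submitters' processing notes. No source used here names the counting tool, its use of strand or the annotation. As values the authors deposited whole-number counts per gene (56196 rows, not normalized) and TPM (24926 rows, scaled by gene length, each column of the same sum). The tables held 0 columns of other samples. Rows without a symbol (28277, 2.01% to 2.16% of the counts) were left out of library sizes and tests. Where a symbol had several rows (407 symbols), it was kept if 1 row held 99% of its counts or more.

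The test was run on the counts with edgeR 4.0.16 under R 4.3.3 (filterByExpr, TMM, glmQLFit with robust estimation, glmQLFTest on the group), with Benjamini-Hochberg adjustment over all tested genes and a threshold of 0.05. CPM are scaled by TMM. The steps were tested on simulated data. Alternatives were RLE factors, library size alone, other count filters, DESeq2 1.42.0, limma 3.58.1 (voom on counts, and trend on log2 of the deposited TPM with pseudocounts of 1 and 0.1), the replicate number as a block and each library left out. Members and lists were chosen with earlier results of these data known. Every member with 3 counts in a library was named with its counts, and related factors past the threshold or with the 4 next smallest p. Since separate embryos are not stated, a p-value here reflects a spread that may be technical. Coordinates are from GENCODE M21. Some single genes are not reported here.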

Additional observations from a re-analysis of the deposited data

How the results depend on the processing

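Lower Mab21l2 in EedcKO kept its direction in all alternatives, at log2 fold changes of -2.05 to -1.70 with a library left out. Its call was lost without EedcKO 3, with the replicate block (edgeR adjusted p = 0.124) and on unfiltered TPM (limma adjusted p = 0.0769). The genes past the threshold numbered 448 in the reported fit, 675 with library size alone, 677 with DESeq2, 203 and 152 with limma-trend on log2(TPM + 1) and log2(TPM + 0.1), and 42 on log2(TPM + 1) without a filter, an alternative added after the data were seen. With a library left out they ranged from 0 to 1012. Of the 35 factors 2 passed with library size alone and with no filter on counts, where Nkx6-1 joined Mab21l2 (edgeR adjusted p = 0.0429 and 0.0480), 0 on unfiltered TPM with limma-trend (7 at an unadjusted p under 0.05), and 0 to 4 with a library left out. The related factors past the threshold numbered 6 on log2(TPM + 0.1), 2 on unfiltered TPM and 0 to 17 with a library left out. The replicate block left 0 genes, 0 of the 35 factors and 0 related factors past the threshold in edgeR (2169 genes and 5 factors at an unadjusted p under 0.05). The labels do not say that a replicate number marks a shared litter or day. Deviations of same-numbered libraries from their group means correlated at -0.01 and 0.13. The 2 wild-type deviations mirror each other, so these values cannot tell whether a litter or day was shared.

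The median of the tested factors was -0.65, -0.68 and -0.45 on log2(TPM + 1), log2(TPM + 0.1) and unfiltered TPM, -0.77 with the replicate block, and -1.22 to 0.27 with a library left out, being above 0 only without the library labelled wild type 2. Pax3 and Pax7, not past the threshold in any fit, were above 0 with limma-voom (0.37 and 0.33), log2(TPM + 1) with or without the filter (0.13 and 0.11), log2(TPM + 0.1) (0.38 and 0.36) and the replicate block (0.37 and 0.21). With a library left out the log2 fold changes ranged from -0.90 to 1.90 for Pax3, -1.22 to 2.29 for Pax7, -2.69 to 0.20 for Irx1, -2.29 to 0.90 for Irx2, -2.10 to 0.39 for Irx3 and -2.21 to 1.58 for Irx5. They ranged from -1.64 to 0.33 for Tal1, -0.64 to 0.058 for Gata2, -1.77 to 2.03 for Lmx1b and -0.33 to 6.13 for En2, whose upper value is a fit against 0 counts in wild type 1 and no bound. The cause was not tested. Of the 213 values of single factors under an alternative, 182 kept their direction and their side of the threshold. Depth limits the motor neuron factors, which had at most 6 counts in a library.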

Other observations

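Some related factors outside the 35 are given as values, and were picked after these were seen. Irx4, of the same chromosome 13 cluster as Irx1 and Irx2 and known from the ventricle of the heart, had 1, 0 and 0 counts in EedcKO 1, 2 and 3, against 0 for wild type 1 and 52 for the library labelled wild type 2. Lmx1a, of the roof plate and of dopaminergic progenitors, had 52, 92 and 9 counts in EedcKO, against 25 for wild type 1 and 280 for the library labelled wild type 2. Msx1, of the dorsal midline, had 111, 125 and 71 counts in EedcKO, against 28 for wild type 1 and 226 for the library labelled wild type 2. Foxa1, of the floor plate, had 18, 30 and 12 counts in EedcKO, against 1 for wild type 1 and 31 for the library labelled wild type 2.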
